A study of Danio rerio with 17 samples.

Results

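The cells described here are neurons of the larval zebrafish midbrain in which the neuropeptide gene *uts1* was detected. They were chosen by their counts: a barcode was a *uts1* cell if it held 600 to 4000 genes, at most 7500 unique molecular identifiers (UMIs), at most 10% mitochondrial UMIs, at least 1 UMI of the neuronal gene *elavl3* and at least 1 UMI of *uts1*. This rule found 429 cells among 42215 *elavl3* cells, and the 41786 *elavl3* cells with no *uts1* UMI are called other cells below. Single cells of the dissected optic tectum and torus longitudinalis were captured in droplets, and UMIs were counted per gene and barcode. The larvae were wild type (TL strain) and untreated, and their age was the single labelled difference between samples. There were 7 batches at 7 dpf (batches 1 to 4, 8, 11 and 12) and 4 batches at 6 dpf (batches 5, 6, 7 and 10). Larvae were pooled within a batch, each batch was a separate dissection, and the batch was therefore taken as the replicate.

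*uts1* encodes urotensin 1, a peptide of the corticotropin-releasing hormone (CRH) family that fish share with the urocortins of mammals. Peptides of this family are made as precursors, cut by proprotein convertases, stored in dense-core vesicles and released to act on G-protein-coupled receptors. One that is bound by both CRH and urotensin 1 is encoded by *crhr1*. In fish the best-known sources of the peptide are the caudal neurosecretory system, where it was first found, and neurons of the midbrain and hypothalamus. Neurons that release a peptide usually also release a fast transmitter, and in the tectum this is mostly GABA, made by the enzyme encoded by *gad1b*, or glutamate, loaded into vesicles by the transporters encoded by *slc17a6a* and *slc17a6b*.

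The deposited matrices held 87881 barcodes, with between 5073733 and 88294858 UMIs in a batch, and 52920 barcodes passed the filters. Pooled over batches, *uts1* cells were somewhat deeper than other cells, with a median of 2855 UMIs against 2315 UMIs. Within batches their median depth was higher in batches 5, 7, 8, 10, 11 and 12 and lower in batches 1, 2, 3, 4 and 6. The median mitochondrial share of *uts1* cells, pooled over batches, was 1.07%, against 1.2% in other cells. Within batches this share was mostly the other way: it was higher in *uts1* cells in batches 1, 3, 4, 5, 6, 7, 8 and 11. It was lower in batches 2, 10 and 12. A high doublet score was found in 12.12% of *uts1* cells and 10.4% of other cells. Of 52577 barcode sequences past the filters, 343 occurred in more than 1 lane. This was so for 0.932% of *uts1* cells and 1.29% of other cells, and no barcode sequence was a *uts1* cell in more than 1 lane.

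Most *uts1* cells held very little *uts1*. A single UMI was found in 290 of the 429 cells (67.6%), 32 cells held 2 UMIs, 39 held 3 or 4, and 68 cells held 5 to 40. Those 68 cells carried 757 of the 1248 *uts1* UMIs of all *uts1* cells (60.7%). Because presence of *uts1* chose the cells, these counts describe the rule and are not a result about it. At the edges of the rule, 79 barcodes with *uts1* had no *elavl3* UMI, 77 had 1 and 74 had 2. The *uts1* cells held 65.8% of the 1896 *uts1* UMIs in all barcodes, and 292 barcodes with *uts1* failed the filters.

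The label was set against cell types that should lack the gene. The share of *elavl3* cells with *uts1* was 1.02% (exact 95% interval 0.923% to 1.12%) at a median depth of 2321 UMIs. Among 201 microglia, taken by their markers, 0 had a *uts1* UMI at a median depth of 3383 UMIs, with an exact 95% interval up to 1.82%. Among 74 erythrocytes, taken by their globins, 1 had a single *uts1* UMI, so that the share over both types was 0.364% (0.00921% to 2.01%, median depth 3575 UMIs), an interval that holds the share of *elavl3* cells. After each cell was thinned to 1000 UMIs the shares were 0.551% in *elavl3* cells and 0.365% in both other types together. A single *uts1* UMI therefore could not be told from free RNA at this depth. Of *elavl3* cells 139 held 2 or more *uts1* UMIs and of the 275 microglia and erythrocytes 0 did, which allows a share of up to 1.09%, so that these few cells do not test the higher counts either. Results below are for all 429 cells, and the values for cells with exactly 1 UMI and for cells with more stand beside those that differ.

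The share of *elavl3* cells with *uts1* varied between batches at both ages. At 7 dpf it was 0.987%, 0.446%, 1.46%, 0.958%, 0.675%, 1.03% and 1.52% in batches 1, 2, 3, 4, 8, 11 and 12, and at 6 dpf it was 0.487%, 0.394%, 0.692% and 1.07% in batches 5, 6, 7 and 10. The ages overlapped. The mean was 1.01% ± 0.388 at 7 dpf (SD, n = 7 batches) and 0.660% ± 0.300 at 6 dpf (SD, n = 4 batches), and the difference of 0.352 percentage points did not exceed the spread between batches (two-sided exact permutation test, p = 0.176, 330 splits). Within batches 1 to 8, taken as sequenced on the same instrument because the labels give none per sample, the means were 0.906% at 7 dpf and 0.524% at 6 dpf (exact p = 0.179, 56 splits). The remaining batches held a single batch at 6 dpf and allowed no such test. After each cell was thinned to 1000 UMIs the difference was 0.231 percentage points (exact p = 0.124).

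**Figure D1:**
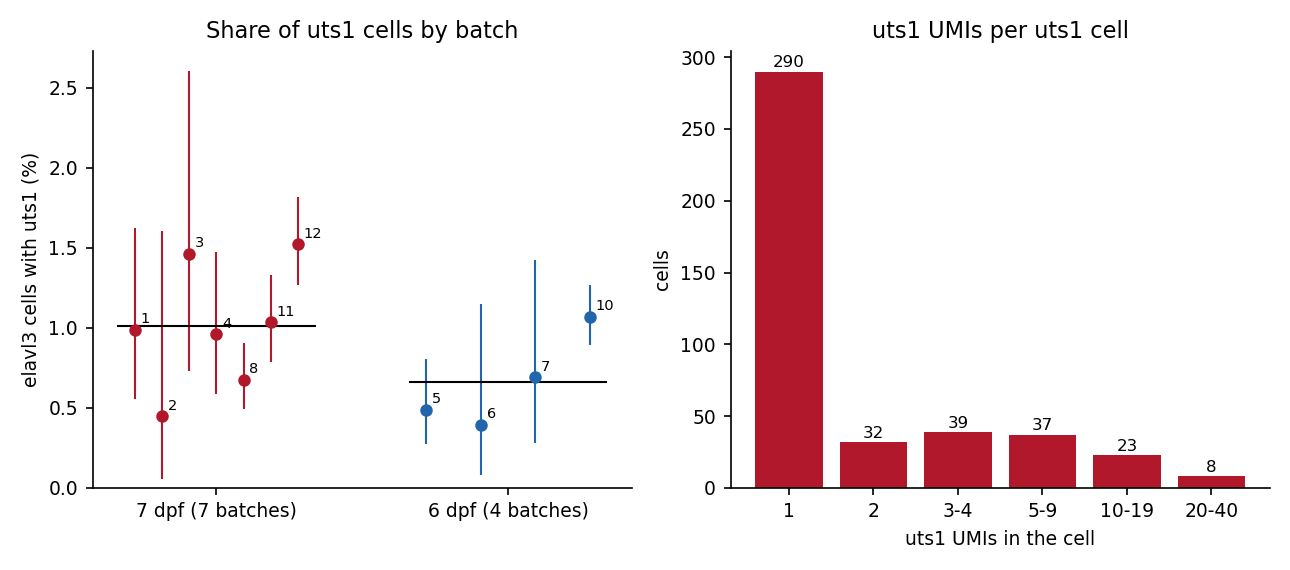
Left, share of *elavl3* cells with a *uts1* UMI (%) in each batch at 7 dpf and 6 dpf, with exact 95% binomial intervals, batch numbers and a line at the mean of each age. Right, number of *uts1* cells by their *uts1* UMIs; 290 of the 429 cells held 1 UMI and 8 cells held 20 to 40.

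GABAergic marker genes were detected in more *uts1* cells than expected from other cells of the same batch and depth, by exact tests that do not pass after adjustment over all genes (adjusted p of 0.21 to 0.232 for the 3 genes below). With so few batches that adjustment could hardly be passed, for the reason given further on. To account for depth, the number of *uts1* cells with a gene was set against the number expected from other cells of the same batch in 5 strata of UMIs per cell, over the 424 cells of the 9 batches with at least 5 *uts1* cells. *gad1b* had a UMI in 199 of them where 142.7 were expected, and the ratio of 1.39 exceeded 1 in 8 of 9 batches (two-sided exact sign-flip test over batches, p = 0.00781). *gad2*, which encodes the other GABA-synthesizing enzyme, had a ratio of 1.37 (exact p = 0.00781). *slc32a1*, the vesicular transporter for GABA and glycine, had a ratio of 1.39 and was above 1 in 9 of 9 batches (exact p = 0.00391, the smallest p that 9 batches allow). In the 135 cells with 2 or more *uts1* UMIs, over 7 batches, the ratios of *gad1b*, *gad2* and *slc32a1* were 1.42 (above 1 in 4 of 7 batches, exact p = 0.219), 1.64 (6 of 7, exact p = 0.0469) and 1.5 (4 of 7, exact p = 0.125), so that *gad1b* and *slc32a1* did not pass there. The glutamate transporter genes did not pass: *slc17a6a* had a ratio of 1.12 (exact p = 0.0742) and *slc17a6b* a ratio of 0.856 (exact p = 0.0938). *chata*, which encodes the enzyme that makes acetylcholine, was found in 25 cells, a ratio of 1.48 (exact p = 0.215).

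By transmitter class, 157 *uts1* cells (36.6%) held *gad1b* alone, 94 (21.9%) held *slc17a6a* or *slc17a6b* alone, 44 (10.3%) held both kinds and 134 (31.2%) held neither. Among other cells these shares were 23.1%, 24.4%, 6.28% and 46.2%. Cells with neither gene were the shallowest *uts1* cells, with a median of 2101 UMIs, and cells with both were the deepest, with a median of 4399 UMIs. A high doublet score was found in 5.10% of the *uts1* cells with *gad1b* alone, 18.1% of those with *slc17a6a* or *slc17a6b* alone and 22.7% of those with both kinds, and the part of doublets in the class shares was not tested. Among the 68 cells with 5 or more *uts1* UMIs, 29 were of the *gad1b* class, 22 of the *slc17a6* class, 8 held both kinds and 9 neither, and 4.41% had a high doublet score.

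Of the 46 genes of the co-detection list found in the counts, 25 were more frequent in *uts1* cells at an exact p under 0.05 and 0 were less frequent. Over all 9074 genes tested in the same way, 6.46% were more frequent and 4.96% less frequent at that threshold. After adjustment over all genes none remained, and the smallest adjusted p was 0.21. Over 9 batches the exact p cannot be below 0.00391, so that this adjustment could be passed only if many genes were at that floor. It therefore cannot decide about single genes. Much of the list was chosen by the study on these libraries, since it holds the genes tabulated together with *uts1* for an excitatory neuron type, and for those genes the count is no independent evidence.

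**Figure D2:**
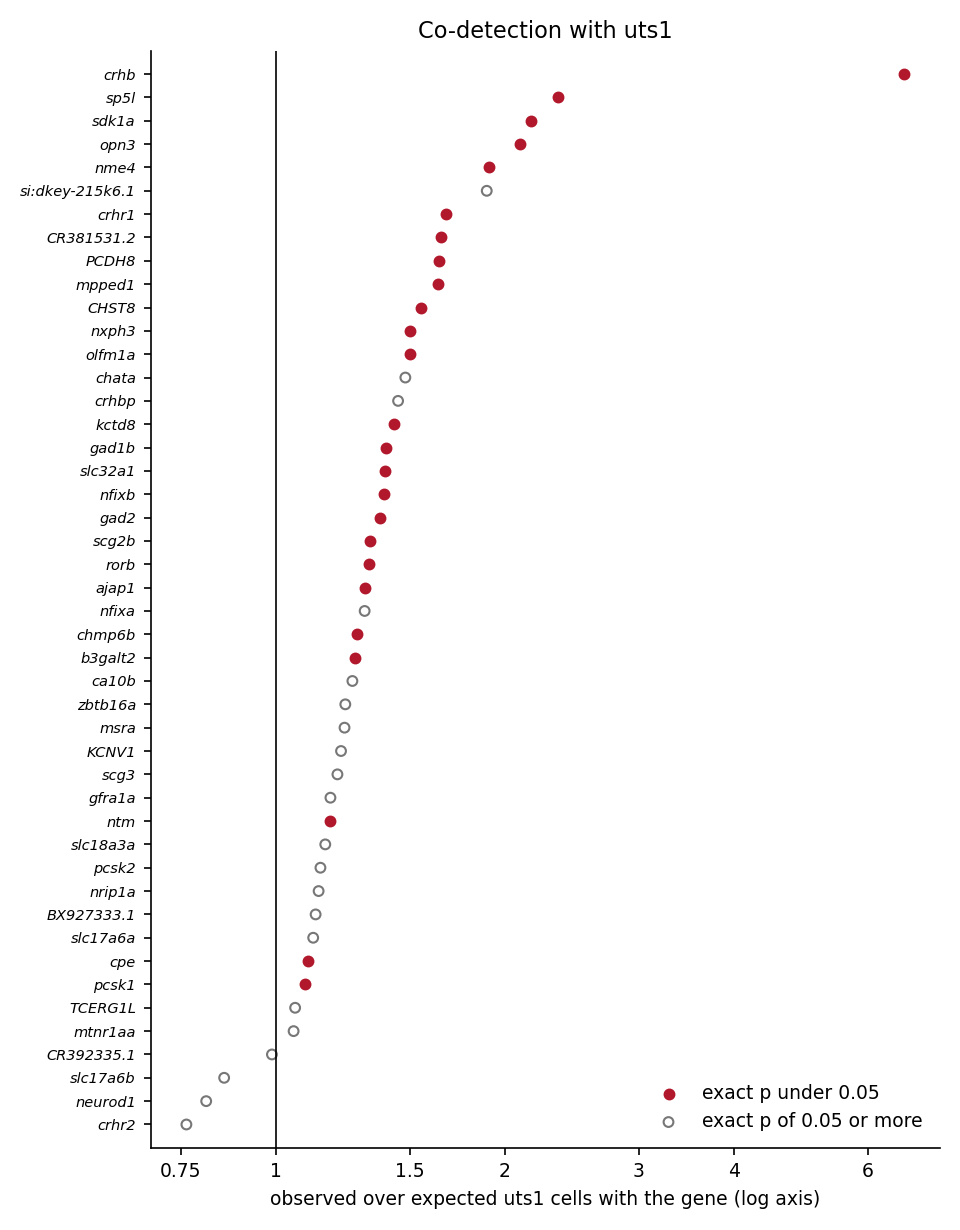
Ratio of the observed to the expected number of *uts1* cells with a UMI of each of 46 listed genes (log axis), over 424 cells of 9 batches. Filled points have an exact sign-flip p under 0.05 without adjustment; *crhb*, at 6.70, is farthest from 1, and *crhr2*, at 0.763, is lowest.

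Of the CRH family, *crhb* and *crhr1* were more frequent in *uts1* cells at an exact p under 0.05, and neither passed after adjustment over all genes. *crhb*, which encodes corticotropin-releasing hormone, had a UMI in 47 cells where 7.02 were expected, and the ratio of 6.70 exceeded 1 in 7 of 9 batches (exact p = 0.0273, adjusted p = 0.330). *crhr1*, the receptor gene, had a UMI in 163 cells where 97.2 were expected, which is a ratio of 1.68 (exact p = 0.0313, adjusted p = 0.351). *crhr2*, which encodes the second receptor of the family, had a ratio of 0.763 (exact p = 0.727), and *crhbp*, the gene of the CRH-binding protein, had a ratio of 1.45 with 8 cells (exact p = 0.309). The peptide gene *crha* had 1 UMI in *uts1* cells, and *ucn3l* had 0 UMIs in the 429 cells and 39 UMIs in the 41786 other cells. With so few UMIs over so many more cells, the count of 0 cannot be read as a difference.

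To test levels, UMIs were summed per batch over *uts1* cells and over other cells, and both sums were compared with the quasi-likelihood test of edgeR with the batch as a block. Of 9074 genes tested, 483 passed an adjusted p of 0.05 (5.32%): 114 were higher in *uts1* cells (1.26%) and 369 lower (4.07%), and with RLE size factors in place of TMM 209 were higher and 302 lower. The genes with the lowest p among those higher encode a peptide, a secreted synaptic ligand, a transcription factor, an adhesion molecule and ion channels, and those among the lower encode glial, progenitor and blood proteins beside some neuronal ones. The median log2 difference over all genes was -0.14, and levels below are UMIs of the gene per 10000 UMIs of all genes in the sum. In cells with exactly 1 *uts1* UMI 54 genes passed, 13 higher and 41 lower. In cells with 2 or more 775 did, 145 higher and 630 lower, so that most of that count was of lower genes.

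*crhb* had the lowest p among the genes that were higher. Its level was 0, 0.51, 0, 0.51, 0.55, 0.22, 1.52, 3.93 and 2.92 in the *uts1* cells of batches 1, 3, 4, 5, 7, 8, 10, 11 and 12. In other cells the level over these batches had a lowest value of 0.0654, a median of 0.131 and a highest of 0.490. The groups overlapped, with *uts1* cells higher in 7 of 9 batches, and the log2 difference was 3.39 ± 0.25 (SE, adjusted p = 8.36e-39). Batches 10, 11 and 12 held 11, 13 and 19 of the 48 *uts1* cells with *crhb*. The call was lost under DESeq2 and in cells with exactly 1 *uts1* UMI, among which the co-detection ratio of *crhb* was 2.20 (exact p = 0.0469, 8 batches). *crhr1* was less far apart: its level had a lowest value of 0, a median of 1.53 and a highest of 5.67 in *uts1* cells, against 0.51, 1.12 and 2.66 in other cells, and the log2 difference was 0.75 ± 0.20 (adjusted p = 0.00897). The *crhr1* call was lost under DESeq2 and without batch 8, 10, 11 or 12, with adjusted p between 0.0594 and 0.140 in edgeR without these batches.

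*nxph3*, which encodes a secreted neurexophilin that binds neurexins, was higher in *uts1* cells in 9 of 9 batches. Its level had a lowest value of 1.27, a median of 6.09 and a highest of 9.80 in *uts1* cells, against 0.52, 0.92 and 1.81 in other cells (log2 difference 2.04 ± 0.19, adjusted p = 1.61e-23). *sdk1a*, a sidekick adhesion molecule of synaptic layers, was also higher in 9 of 9 batches, with a median of 2.05 in *uts1* cells against 0.77 in other cells (1.72 ± 0.20, adjusted p = 2.48e-14). *sp5l*, a transcription factor gene of the Sp family, was at 2.55, 2.56, 5.11, 3.55, 3.16 and 1.07 in the *uts1* cells of the 7 dpf batches 1, 3, 4, 8, 11 and 12, and at 0, 0 and 0.218 in those of the 6 dpf batches 5, 7 and 10. Other cells had a lowest *sp5l* level of 0.20 and a highest of 0.51. Of the batches in the test, the *uts1* cells were above them in each at 7 dpf and in none at 6 dpf (log2 difference over all batches 1.94 ± 0.22, adjusted p = 9.64e-16, lost under DESeq2). Batches 5 and 7 held 15 and 7 *uts1* cells, where 0.67 and 0.34 cells with *sp5l* were expected from other cells. Batch 6, at 6 dpf, was too small to enter the test and held *sp5l* in 1 of 3 *uts1* cells. The ages are compared further on.

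Further genes among the 15 with the lowest p were *rtn4rl2a*, a Nogo receptor family member (log2 difference 1.91), the acid-sensing ion channel genes *asic4a* (2.09) and *asic4b* (1.60), *kcnq5b*, a voltage-gated potassium channel gene (1.54, lost under DESeq2 with an adjusted p of 0.332), and *calb2b*, which encodes the calcium-binding protein calretinin (1.3). *tcima* (1.47), *CR381531.2* (1.19), *si:ch211-153l6.6* (1.41), *sntg1*, a syntrophin gene (1.54), *ggctb* (1.55) and *CHST8*, a sulfotransferase gene (1.21), completed them. *rtn4rl2a*, *CR381531.2* and *si:ch211-153l6.6* were higher in 9 of 9 batches and *CHST8* in 8. *asic4a*, *tcima*, *calb2b* and *ggctb* were higher in 7 of 9, *kcnq5b* in 6, and *sntg1* and *asic4b* in 5, with 4 lower. *calb2a*, the paralog of *calb2b*, passed in the other direction and was lower in 7 of 9 batches. Of these 15 genes, *si:ch211-153l6.6* alone passed in cells with exactly 1 *uts1* UMI, and there *rtn4rl2a* and *tcima* turned to log2 differences of -0.11 and -1.12, neither past the threshold.

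**Figure D3:**
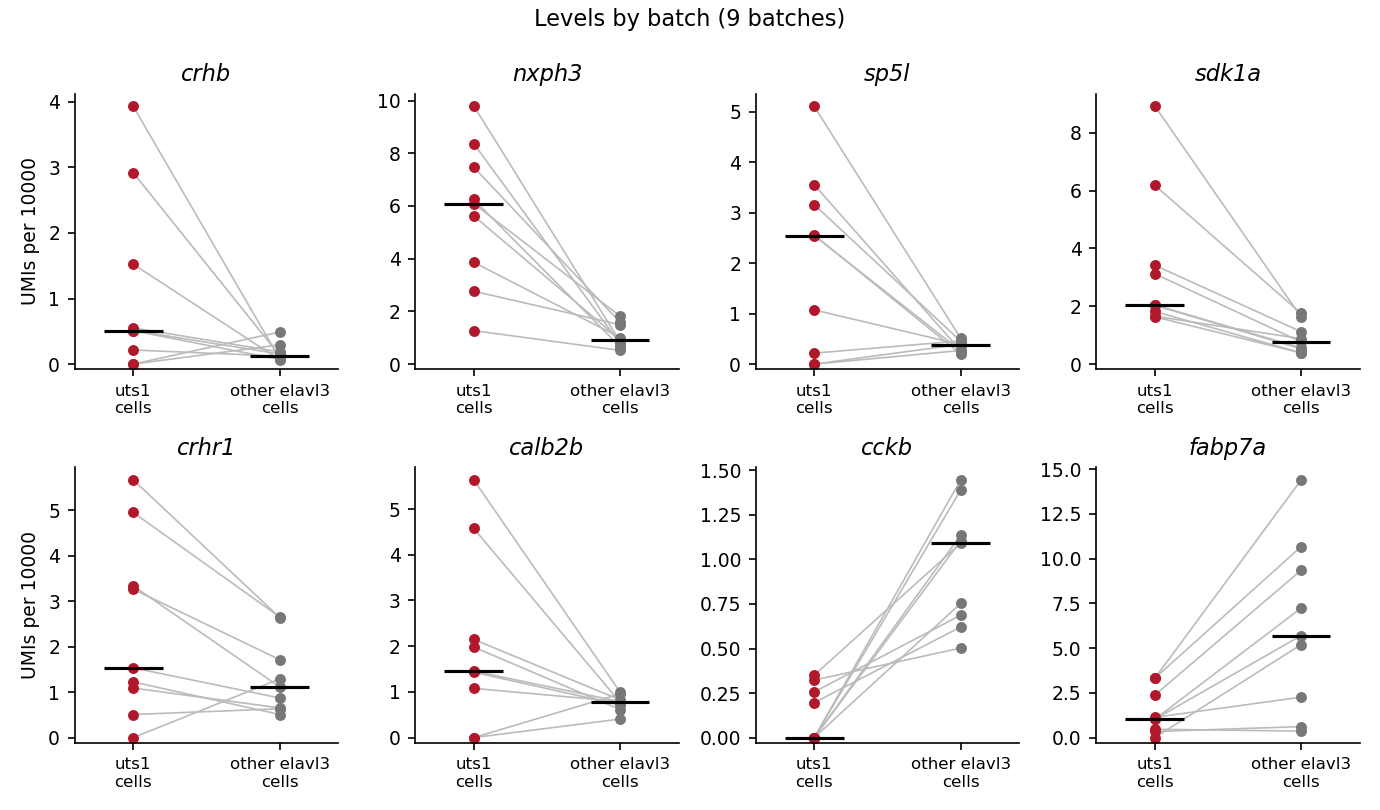
Levels of 8 genes (UMIs per 10000) in *uts1* cells and in other *elavl3* cells of the same batch; points are the 9 batches with at least 5 *uts1* cells, grey lines join the groups of a batch and bars mark medians. *nxph3* and *sdk1a* were higher in *uts1* cells in every batch, and *cckb* was lower in every batch.

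Several genes were found in larger shares of the cells with more *uts1* UMIs, a description with cells of all batches pooled and no test. *crhr1* was found in 19.5% of other cells, 27.2% of cells with 1 *uts1* UMI, 46.5% of those with 2 to 4 and 77.9% of those with 5 or more. *sdk1a* followed with 14.1%, 21.7%, 50.7% and 75% in the same order. For *crhb* the shares were 1.5%, 3.4%, 16.9% and 38.2%, and for *sp5l* they were 5.3%, 6.6%, 21.1% and 39.7%. *gad1b* was at 29.4% in other cells and varied less among *uts1* cells, at 44.1%, 50.7% and 54.4%. The median depth of the 3 groups of *uts1* cells was 2719.5, 2948 and 3561.5 UMIs. In cells with exactly 1 *uts1* UMI, set against other cells of the same depth, *gad1b* had a ratio of 1.37 (exact p = 0.00781, 8 batches), whereas *sp5l* had 1.09 (exact p = 0.742), *nxph3* 0.990 (exact p = 0.828) and *crhr1* 1.25 (exact p = 0.281). In cells with 2 or more *uts1* UMIs, over 7 batches, *gad1b* had a ratio of 1.42 (exact p = 0.219), *sdk1a* 3.60 (exact p = 0.0156), *sp5l* 4.91 (exact p = 0.0156), *crhr1* 2.50 (exact p = 0.0313) and *crhb* 15.6, which was above 1 in 4 of 7 batches (exact p = 0.125).

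**Figure D4:**
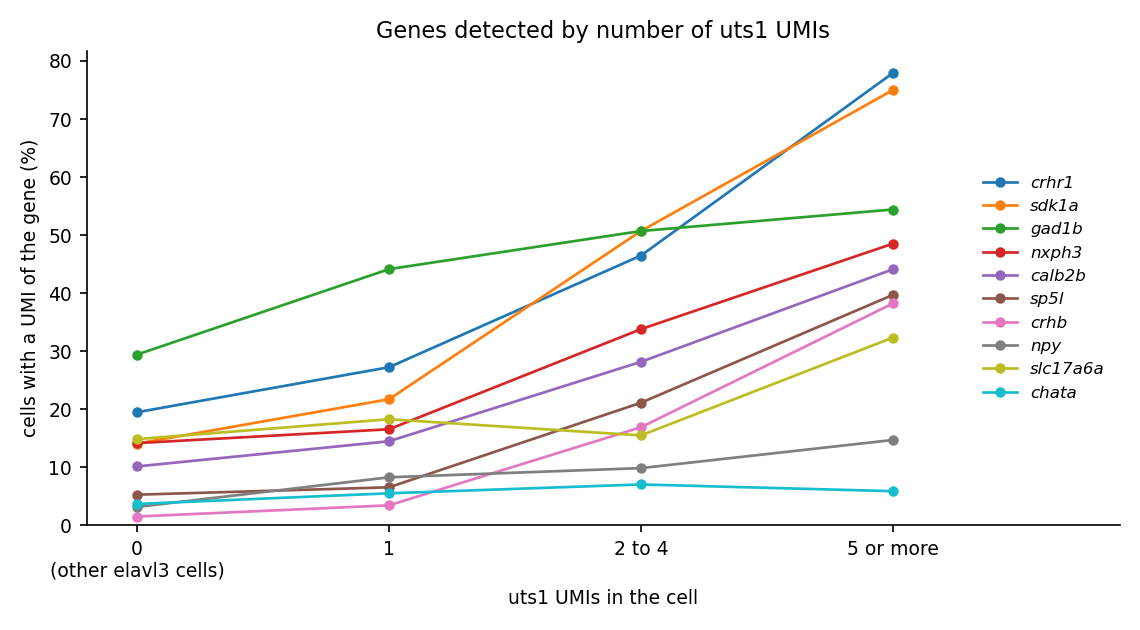
Share of cells with a UMI of each of 10 genes (%) by the number of *uts1* UMIs in the cell, pooled over batches, from other *elavl3* cells (0) to *uts1* cells with 5 or more. *crhr1* and *sdk1a* end at 77.9% and 75%, while *chata* stays between 3.7% and 7.0%.

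Genes lower in *uts1* cells included those of other cell types. *fabp7a*, a radial glia gene, had a median level of 1.02 in *uts1* cells against 5.71 in other cells (log2 difference -1.87 ± 0.24, adjusted p = 4.08e-12). The embryonic globin genes *hbbe1.1*, *hbae3* and *hbbe2* had log2 differences of -2.48, -2.27 and -2.32. Globin transcripts were found in similar shares of cells: *hbbe1.1* had a UMI in 8.39% of *uts1* cells and in 8.70% of other cells, while its pooled level was 0.313 in *uts1* cells and 1.61 in other cells. Over the 9 radial glia markers the summed level ranged between 4.83 and 22.6 over batches in *uts1* cells, with a median of 8.24, and between 6.13 and 39.2 in other cells, with a median of 16.1. The 9 globin and other erythrocyte markers summed to between 0 and 3.27 in *uts1* cells and between 0.394 and 13.0 in other cells. The 10 microglia markers summed to between 0 and 3.81 in *uts1* cells, where *mpeg1.1*, *c1qa* and *c1qc* were at 0, and to between 0.523 and 4.43 in other cells. The 7 neuron markers other than *elavl3* summed to a median of 50.3 in *uts1* cells and 37.5 in other cells. The part of these cell types in the lower genes was not tested.

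Among neuronal genes that were lower, *cckb*, which encodes the peptide cholecystokinin, had groups that did not overlap, which was looked at for named genes alone. The sum of *uts1* cells held as few as 18119 UMIs in a batch (batch 7), so that a level of 0 rests on few expected counts. Its level had a lowest value of 0, a median of 0 and a highest of 0.350 in *uts1* cells, against 0.503, 1.09 and 1.45 in other cells (log2 difference -1.98 ± 0.29, adjusted p = 1.14e-08). The transcription factor genes *atf5b* (-1.61) and *meis2b* (-1.41), *mab21l2* (-1.30), the parvalbumin gene *pvalb6* (-1.38) and *crabp1a*, which encodes a retinoic acid-binding protein (-1.67), were also lower. The Notch-responsive repressor genes *her4.1* (-1.75) and *her15.2* (-1.34), the chromatin genes *hmgb2a* (-1.50) and *chd4a* (-1.21) and the heat shock gene *dnajb1b* (-1.40) completed the 15 lower genes with the lowest p.

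Granin genes were among the genes of the peptide machinery that passed. Of 18 genes of dense-core vesicles and peptide processing tested, *scg2b* (0.60) and *vgf* (0.70), which encode granins, were higher and none was lower, beside 1.26% higher over all genes, with a median log2 difference of 0.11 and a median of -0.14 over all genes. Both calls were lost without batch 4, 10, 11 or 12, with adjusted p of 0.126 to 0.301 for *scg2b*, which also lost it without batch 8 (0.0661), and of 0.0516 to 0.214 for *vgf*. In the co-detection test *scg2b* had a ratio of 1.33 (exact p = 0.00781), the convertase gene *pcsk1* had 1.09 (exact p = 0.0273) and the carboxypeptidase gene *cpe* had 1.1 (exact p = 0.0234). Of 55 other neuropeptide genes 9 could be tested, of which *npy* was higher (1.17 ± 0.22, adjusted p = 2.10e-05) and *cort* (-1.52) and *cckb* were lower. Over all genes 1.26% were higher and 4.07% lower, and the median of these 9 was -0.03, against -0.14 over all genes. The *npy* call was lost under DESeq2 (adjusted p = 0.741), without batch 4 (0.157), without batch 10 (0.0917) and without cells of high doublet score (0.225). The *npy* level was between 0 and 2.13 in the *uts1* cells of 8 batches and 8.37 in batch 4, where a single cell held its 41 *npy* UMIs. None of the urotensin II genes, which encode unrelated peptides of similar name, had enough counts to be tested.

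*slc32a1* (0.58, adjusted p = 0.0455) was the one gene of 8 GABA and glycine genes tested that passed, and none of 4 glutamate, 3 acetylcholine and 2 monoamine genes did, beside 5.32% of all genes. The *slc32a1* call was lost without any 1 of batches 1, 3, 5, 8, 10, 11 or 12 (adjusted p between 0.0578 and 0.181). Of 48 tectal transcription factor genes tested, *sp5l* was higher and 18 were lower, beside 4.07% lower over all genes, including *neurod1* (-1.22), *pou4f1* (-1.24) and *en2b* (-0.76), and the list's median was -0.50. With RLE size factors *en2a*, *lhx2b* and *lhx9* no longer passed, and *en2b* did not under DESeq2 (adjusted p = 0.0798) or without batch 7 (0.0505), 10 (0.0588) or 12 (0.0653). Early neuron genes had 8 of 13 lower, against the same 4.07% over all genes, including *sox11a* (-1.09) and *insm1a* (-0.87, lost under DESeq2), and none higher, with a median of -0.83. Of 15 genes of neuronal maturity 1, *gap43*, was lower (-0.65, not past the threshold under DESeq2, with RLE size factors or without batch 3, 5, 7, 8, 11 or 12, with adjusted p of 0.0692 to 0.231 without these batches) and none higher. Among 29 genes that the study tabulated with *uts1* for an excitatory neuron type, 14 were higher and none lower, with a median of 0.60, beside 1.26% higher over all genes. They include *nxph3*, *sp5l*, *sdk1a*, *CR381531.2* and *CHST8*, named above. They also include *nfixb*, a nuclear factor I transcription factor gene (1.11), *opn3*, an opsin gene (1.12), *ntm*, an adhesion molecule gene (0.95), and the protocadherin gene *PCDH8* (0.82). As the list was chosen on these libraries, its direction is no independent evidence. *opn3* did not pass without batch 10 (adjusted p = 0.0780), nor *PCDH8* without batch 1, 3, 8, 11 or 12 (0.0569 to 0.553) or under DESeq2 (0.0951).

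The *slc17a6* class of *uts1* cells was compared with other cells of that class in the 6 batches with at least 3 such cells (batches 1, 4, 8, 10, 11 and 12). Of 6339 genes tested 113 passed (1.78%), 39 higher (0.615%) and 74 lower (1.17%), or 56 higher and 66 lower with RLE size factors. *nfixb* had a lowest level of 9.12, a median of 12.6 and a highest of 43.5 in *uts1* cells of the class, against 1.03, 2.90 and 5.00 in other cells (log2 difference 2.51 ± 0.25, adjusted p = 7.22e-20). *nxph3* had 6.08, 9.34 and 25.4, against 0.726, 1.59 and 2.80 (2.63 ± 0.26, adjusted p = 7.22e-20). For both genes the groups did not overlap, which was looked at for named genes alone. Both genes, and *ntm*, *nme4* and *sp5l* below, are on the list that the study tabulated with *uts1* for an excitatory neuron type. Of 28 genes of that list tested here 14 were higher, beside 0.615% over all genes. As the list was chosen on these libraries, its genes are no independent evidence. *ntm* (1.63), *tcima* (2.17), *nme4*, a nucleoside diphosphate kinase gene (2.76), and *sp5l* (2.04) were also higher. Of these, *ntm* and *tcima* were higher in 6 of 6 batches and *nme4* in 5, whereas *sp5l* was higher in 4 and lower in 2. The adhesion molecule genes *mdga1* (-1.89) and *bcam* (-1.79), the phosphatase gene *ptprub* (-1.84), the splicing factor gene *rbfox3a* (-1.23) and *atf5b* (-2.40) were lower, of which *rbfox3a* did not pass without batch 4 (adjusted p = 0.137). *kcnq5b* had 0 UMIs in the 94 cells, which over their summed UMIs (a limit of 3 counts) is at least 3.02-fold lower than the 0.270 per 10000 of other cells of the class. The count of genes was 22 without batch 4, 71 without batch 8, 49 without batch 11 and 37 without cells of high doublet score, and 1 in cells with exactly 1 *uts1* UMI.

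The *gad1b* class of *uts1* cells was compared with other *gad1b* cells in 9 batches. Of 3237 genes tested 99 passed (3.06%), 40 higher (1.24%) and 59 lower (1.82%), or 78 higher and 42 lower with RLE size factors. *kcnq5b* had a lowest level of 0, a median of 1.07 and a highest of 6.62 in *uts1* cells, against 0.262, 0.562 and 1.12 in other *gad1b* cells (log2 difference 1.82 ± 0.26, adjusted p = 5.36e-09). It was higher in 5 of 9 batches and lower in 4, and the call was lost under DESeq2. *CR381531.2* (1.56), *si:ch211-153l6.6* (1.55), the sialyltransferase gene *st6galnac5a* (1.5) and the zinc-finger transcription factor gene *tshz3b* (1.59) were also higher, as was *calb2b* (1.4). Its paralog *calb2a* passed as lower, in 9 of 9 batches. *BX927333.1* (-1.73), *pvalb6* (-1.81), the tectal transcription factor genes *pax7a* (-1.56) and *tfap2b* (-1.75) and the orphan nuclear receptor gene *esrrga* (-1.66) were lower. *tfap2b* did not pass without batch 12 (adjusted p = 0.0525) nor *esrrga* without batch 11 (0.0532), and under DESeq2 *CR381531.2*, *tshz3b*, *BX927333.1*, *tfap2b* and *esrrga* did not pass. *crhr1* had a log2 difference of 0.52 (adjusted p = 0.353). The count of genes was 62, 35 and 31 without batch 10, 11 or 12, 156 without batch 8, 8 under DESeq2 and 15 in cells with exactly 1 *uts1* UMI.

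*crhb* was too rare to enter that test and is given as counts. It had 226 UMIs in 32 of the 157 *uts1* cells of the *gad1b* class (20.4%), in 5 batches, and 167 UMIs in 112 of 9669 other *gad1b* cells. The pooled level was 4.21 in *uts1* cells and 0.0563 in other *gad1b* cells, a ratio of 74.7 (95% interval 60.9 to 91.8, counting error only, with cells of all batches pooled). A single *uts1* cell held up to 25 of these UMIs, so that they are not independent counts and the interval is too narrow. The level was higher in *uts1* cells in batches 8, 10, 11 and 12 and lower in 5 of the 9 batches, where those *uts1* cells held 0 *crhb* UMIs. In the *slc17a6* class it had 4 UMIs in 3 of 94 *uts1* cells, against 633 UMIs in 238 of 10182 other cells, a ratio of 0.584 (0.159 to 1.5). In the *uts1* cells of a single class, *crhb* was thus found mainly beside *gad1b*.

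*uts1* cells of the 2 classes were then compared with each other within the 6 batches that held at least 3 cells of each. Of 855 genes tested 65 passed (7.6%), 38 higher in the *gad1b* class (4.44%) and 27 lower (3.16%). *gad2* (4.09), the GABA transporter gene *slc6a1b* (3.46), the neurexin gene *nrxn3a* (3.73), *znf385c* (3.36) and *tal1*, a transcription factor gene of GABAergic midbrain neurons (3.32), were higher in the *gad1b* class. *nxph3* (-5.55), the neuritin gene *nrn1a* (-3.50), *ntm* (-2.82) and the transcription factor genes *ebf1b* (-3.43), *lhx9* (-2.60) and *nfixb* (-2.11) were lower. The classes were split by *gad1b* and the *slc17a6* genes, so that higher GABA genes follow from the split and are no result about *uts1* cells. In the interaction test below none of 7 GABA and glycine genes passed. Of 41 tectal transcription factor genes tested there, *meis1b* and *zbtb16a* alone passed, and not *tal1* or *lhx9*. For *nxph3* the classes did not overlap, with 23 UMIs in 157 *gad1b* cells and 401 UMIs in 94 *slc17a6* cells. Overlap was looked at for named genes alone. *nxph3*, *ntm* and *nfixb* are on the study's list for an excitatory type, chosen on these libraries, and are no independent evidence. *crhr1* had a log2 difference of 0.18 ± 0.37 (adjusted p = 0.867). The count was 26, 22 and 20 without batch 10, 11 or 12, where 432 to 434 genes were left to test, and 99 and 113 without batch 4 or 8.

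Whether *uts1* cells differed from other cells in the same way in both classes was tested with an interaction term over the 4 sums of each of the 6 batches. It passed for 99 of 5244 genes (1.89%), 57 with a more positive difference in the *gad1b* class (1.09%) and 42 with a more negative one (0.801%). *nxph3* (-4.72), *nfixb* (-3.13), *nme4* (-3.64), *ntm* (-2.50) and the galactosyltransferase gene *b3galt2* (-1.84) had the more positive difference in the *slc17a6* class. These genes are all on the list that the study tabulated with *uts1* from these libraries, and are no independent evidence. The cGMP-dependent kinase gene *prkg1b* (3.43), the acid-sensing channel gene *asic1b* (3.17), *sdk1b* (2.48) and *meis1b*, a homeobox gene (2.47), had the more positive difference in the *gad1b* class. In the *slc17a6* class *uts1* cells were lower than other cells in 6 of 6 batches for *sdk1b*. They were lower in 5 of 6 for *asic1b* and *meis1b* and in 3 of 6 for *prkg1b*. *calb2b* also differed (1.83, adjusted p = 0.0321), whereas *sp5l* (-1.49, adjusted p = 0.518), *sdk1a* (0.44, adjusted p = 0.755) and *crhr1* (-0.24, adjusted p = 0.861) did not pass. Without batch 4, 8, 11 or 12 the count was 53, 54, 45 or 22.

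**Figure D5:**
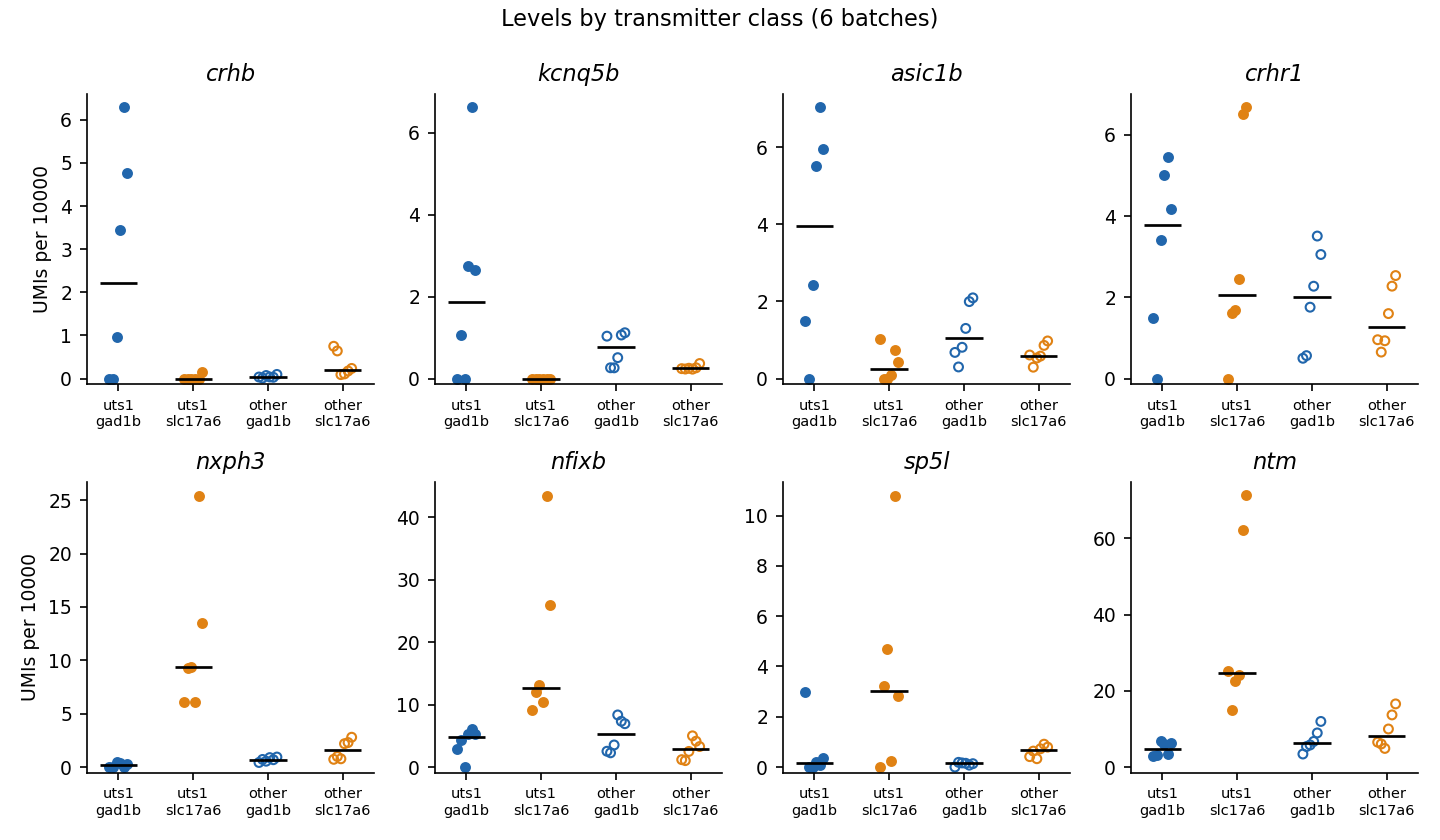
Levels of 8 genes (UMIs per 10000) in *uts1* cells (filled) and other *elavl3* cells (open) of the *gad1b* class (blue) and the *slc17a6* class (orange) in 6 batches; bars mark medians. *nxph3* and *nfixb* were high in *uts1* cells of the *slc17a6* class in all 6 batches, and *kcnq5b* was at 0 in all of them.

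Pooled over the 429 *uts1* cells, *crhb* was found mostly beside *gad1b* and *sp5l* mostly beside *slc17a6a* or *slc17a6b*. Of 48 cells with *crhb*, 38 held *gad1b* (79.2%), 42 held *crhr1* (87.5%), 9 held *slc17a6a* or *slc17a6b* and 3 held *sp5l*, where the frequencies of both genes alone would give 6.83. Of 61 cells with *sp5l*, 36 held *slc17a6a* or *slc17a6b* (59.0%), 17 held *gad1b*, 40 held *crhr1* (65.6%), 7 held *neurod1* and 5 held *chata*. *nxph3* was found in 105 *uts1* cells, 58 of them with *slc17a6a* or *slc17a6b* (55.2%) and 26 with *gad1b*. *calb2b* was in 92 cells, of which 34 held *crhb*, and *npy* in 41, of which 28 held *gad1b*. Of 634 other cells with *crhb*, 161 held *gad1b* (25.4%), 135 held *crhr1* (21.3%) and 287 held *slc17a6a* or *slc17a6b* (45.3%), against 29.5%, 19.5% and 30.4% of other cells without *crhb*. Other cells with *sp5l* held *slc17a6a* or *slc17a6b* in 46.8%, against 29.7% without *sp5l*. They held *gad1b* in 23.1%, *crhr1* in 24.8%, *neurod1* in 18.1% and *chata* in 9.34%. Other cells with *nxph3* held *slc17a6a* or *slc17a6b* in 43.04%, against 28.6% without *nxph3*. Pairing of *sp5l* and *nxph3* with *slc17a6a* or *slc17a6b* was thus also found outside *uts1* cells. By batch, *crhb* cells with *gad1b* were 9 of 11, 12 of 13 and 15 of 19 in batches 10, 11 and 12. They were 1 of 1 in each of batches 6 and 8 and 0 of 1 in each of batches 3, 5 and 7. *sp5l* cells with *slc17a6a* or *slc17a6b* were 4 of 6, 7 of 9, 10 of 11 and 11 of 21 in batches 4, 8, 11 and 12. They were 0 of 3, 1 of 1, 0 of 2, 1 of 1 and 2 of 7 in batches 1, 2, 3, 6 and 10. The pooled counts are over cells of unequal depth, and none of these pairings was tested.

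Gene levels of *uts1* cells were compared between 6 batches at 7 dpf and 3 batches at 6 dpf, with the sequencer as a covariate (batches 10 to 12 were assigned to the second instrument by elimination), and 1 of 1236 genes tested passed (0.0809%). It was *sp5l*, with a log2 difference of 3.71 ± 0.70 (adjusted p = 0.0402). It was found in 52 of 273 *uts1* cells at 7 dpf (19%) and in 7 of 151 at 6 dpf (4.64%). The levels of the 6 and 3 batches did not overlap (two-sided exact permutation test of the level, p = 0.0119, the smallest that 84 splits allow, run after the fit was seen). As the fit picked *sp5l* from 1236 genes on the same batches, this p and the lack of overlap are no independent evidence. Of the 6 dpf batches, 5 and 7 held 15 and 7 *uts1* cells. Batch 6, also at 6 dpf, did not enter and held *sp5l* in 1 of 3 *uts1* cells. In other cells the mean *sp5l* level was 0.348 at 7 dpf and 0.374 at 6 dpf (exact p = 0.714). The call was lost without any 1 of batches 1, 3, 4, 5, 7, 8, 10 or 11 (adjusted p between 0.0558 and 0.416) and without the sequencer term (0.114). Batch 8 is labelled 7 dpf except in a single line that says 6 dpf, and with batch 8 as 6 dpf the log2 difference was 1.81 (adjusted p = 0.826) and the exact p of the level was 0.0952.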

How the data were processed

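Cells of dissected tecta and torus longitudinalis were captured with the 10x Chromium 3′ kit, whose UMIs let copies of 1 molecule be counted once. The authors made the deposited raw UMI counts per gene and barcode with Cell Ranger 7.1.0 on the GRCz11 genome, without normalization, and had combined the repeat runs of a batch except for the 2 lanes of batch 11, which were pooled here. The files held 25432 features, of which 42 immediate early genes were left out, and 287221630 UMIs. Beyond the calling of barcodes, no filter on cells and no removal of doublets was part of these counts. Repeat libraries and lanes are not separate replicates, so tests were run over dissections: 11 for the share by age, 9 for co-detection and the fits on all *uts1* cells, the *gad1b* class and age, and 6 for the fits with the *slc17a6* class. A small edgeR p-value does not by itself mean that the batches agree. *crhb* over all *uts1* cells and *kcnq5b* in the *gad1b* class passed while higher in 7 of 9 and 5 of 9 batches. Both calls were lost under DESeq2.

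The members, gene lists and tests were chosen with earlier results of these data known. Sums of raw counts per batch were tested with edgeR 4.0.16 in R 4.3.3 (quasi-likelihood, TMM, filterByExpr), with batch as a block because both groups came from the same library, and without *uts1*, *elavl3* and, in class comparisons, *gad1b*, *slc17a6a* and *slc17a6b*. Batches entered with at least 5 *uts1* cells, or 3 of a class. Adjusted p-values are Benjamini-Hochberg over all genes tested at 0.05, and standard errors follow from the test statistic. Co-detection used exact sign-flip tests over batches, and shares an exact permutation test over batches. The design called for adjustment of co-detection over the listed genes, and adjustment over all genes was used instead. The comparison of differences between classes was added after the data were seen.

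Of 363 listed genes 342 were found under their names in the counts. Genes named are those of the co-detection list, the 15 with the lowest p in each direction for *uts1* cells against other cells and 5 for each other comparison, list members past the threshold, and a few chosen after their values were seen. Doublets were scored per lane with Scrublet as in scanpy 1.11.5, and the highest 10% were left out as an alternative. Microglia were barcodes with at least 4 microglia markers and erythrocytes those with at least 20% globin UMIs. Python 3.11.15 with numpy 2.4.6, scipy 1.17.1 and pandas 2.3.3 was used. Intervals are exact and cover counting error only. Alternatives were DESeq2 1.42.0, RLE size factors, no filter on low counts, no block, each batch left out, other *uts1* and gene minimums, depth-weighted other cells, and removal of cells of neighbouring tissue or high doublet score.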

Additional observations from a re-analysis of the deposited data

Results flagged for a closer look

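The *npy* level of *uts1* cells was 8.37 UMIs per 10000 in batch 4, far from the other 8 batches (gap over range 0.745, n = 9), and all 41 UMIs came from 1 cell. Of 26 groups of values looked at in this way, 1 stood apart, and chance gives about 1 in 20.

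The difference between *uts1* cells and other cells was not the same in both transmitter classes for 10 named genes, by the interaction term of edgeR. The log2 difference in the *gad1b* class minus that in the *slc17a6* class was 9.0 for *crhb*, 3.43 for *prkg1b*, 3.17 for *asic1b*, 2.48 for *sdk1b* and 2.47 for *meis1b*. It was -4.72 for *nxph3*, -3.64 for *nme4*, -3.13 for *nfixb*, -2.50 for *ntm* and -1.84 for *b3galt2*. The size for *crhb* rests on few UMIs in *uts1* cells of the *slc17a6* class, which held 4 in 94 cells, and is not a measure of fold.

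Among the 10705 barcodes past the filters that had no *elavl3* UMI, 79 held *uts1* (0.738%), 20 of them with 2 or more UMIs and 8 with 5 or more, up to 19. Their share after thinning to 1000 UMIs was 0.508%, beside 0.551% in *elavl3* cells, and the median depth of barcodes without *elavl3* was 1541 UMIs, against 2321 in *elavl3* cells. Microglia and erythrocytes by their markers had *uts1* in 1 of 275 cells.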

How the results depend on the processing

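For *uts1* cells against other cells, 483 genes passed. The count was 265 under DESeq2, 764 with no filter on low counts, 4 with no replicate block, 775 for cells with at least 2 *uts1* UMIs and 54 for exactly 1. For the *slc17a6* class (113 genes) these counts were 62, 369, 0 (329 at an unadjusted p under 0.05), 833 and 1, and 37 without high doublet scores. For the *gad1b* class (99 genes) they were 8, 1336, 6, 509 and 15. With at least 2 *uts1* UMIs most of these genes were lower. In the *slc17a6* class 71 were higher and 762 lower, over batches 4, 8, 10, 11 and 12 with 3 to 9 such *uts1* cells each. In the *gad1b* class 112 were higher and 397 lower, over batches 10, 11 and 12 alone. Between the classes (65 genes) the count was 177 with no filter and 24 with no replicate block, and for the difference between classes (99 genes) it was 151 with no filter. Leaving out 1 batch at a time gave 344 to 402, 22 to 142, 31 to 156, 20 to 113 and 22 to 73 genes in these 5 comparisons.

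For age the count (1 gene, *sp5l*) was 3 under DESeq2, 18 with no filter, 0 without the sequencer term (44 unadjusted), 0 with batch 8 as 6 dpf (50 unadjusted) and 0 to 1 with 1 batch left out. The difference in the share of *uts1* cells between ages was 0.263 to 0.488 points with 1 batch left out. Of the 46 listed genes 25 were co-detected, and 6 were in cells with exactly 1 *uts1* UMI and 21 to 26 with 1 batch left out.

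In cells with exactly 1 *uts1* UMI, log2 differences against other cells turned to -0.11 for *rtn4rl2a*, -1.12 for *tcima* and -0.19 for *ca10b*, in the *slc17a6* class to -1.97 for *tcima*, and in the *gad1b* class to -0.11 for *CR381531.2* and -0.34 for *crhr1*, which was at -0.061 with no filter. The cause of these changes was not tested, except that fewer or more genes and cells entered. Of the differences of named genes with 1 batch left out, 861 kept direction and side of the threshold and 97 kept direction alone. RLE size factors instead of TMM moved the share of higher genes to 40.9% (23.6% with TMM) for all *uts1* cells, 45.9% (34.5%) for the *slc17a6* class and 65.0% (40.4%) for the *gad1b* class. Most *uts1* cells rest on 1 UMI, which limits each of these comparisons.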
